A study of Mus musculus with 20 samples.

Results

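The D cyclins Ccnd1, Ccnd2 and Ccnd3 and the G1 cyclin-dependent kinases Cdk2, Cdk4 and Cdk6 were examined in mouse embryonic fibroblasts (MEFs), the primary connective tissue cells that grow out of a dissociated embryo. Members were all probe sets whose single gene symbol, current or older, was one of these 6 genes. They came to 16 of the 22626 probe sets that are not controls: 3 for Ccnd1, 7 for Ccnd2, 1 for Ccnd3, 1 for Cdk2, 3 for Cdk4 and 1 for Cdk6. The E2F4 null group held 10 cultures from 5 embryos, with 2 cultures each. The wild type group held 10 cultures from 3 embryos, with 3, 3 and 4 cultures. All cells were primary MEFs from embryos of 13.5 days post coitum, and each culture was put on 1 Affymetrix array. The labels do not state the allele of the null embryos, their strain, sex or litter, or the passage and density of the cultures. Of the 2 numbers in a sample title, the first was taken to name the embryo, in keeping with the design text, and embryos were the replicates.

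A D cyclin binds Cdk4 or Cdk6, and the complex phosphorylates the retinoblastoma protein family, which releases E2F factors and lets the genes of DNA replication be transcribed. D cyclins are made in response to growth factors and so link mitogens to the cell cycle. Cdk2 acts later in G1 and in S phase with cyclin E and cyclin A, and several of those later genes are themselves E2F targets. E2F4 is an E2F family member that lacks strong activating function and represses with the pocket proteins p107 and p130 in resting and early G1 cells.

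Values are microarray signals in arbitrary units. A probe set's signal can be compared between arrays, but signals of different probe sets depend on their probes, so no level of a gene was set against the level of another gene. Differences and tests used log2(signal + 16), which understates the change of dim probe sets. A probe set was called when its Benjamini-Hochberg adjusted p over all 22626 probe sets was under 0.05. Bulk cultures cannot tell fewer cells that express a gene from less RNA per cell. Nothing says whether the cultures of an embryo were grown or processed together or apart in time. The spread between cultures may be partly technical, and it may be too small if they were handled together. A difference between embryos, tested against that spread, cannot be told apart from a difference in handling.

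By their suffixes, 2 Ccnd2 probe sets and 1 Cdk4 probe set (1455956_x_at, 1448229_s_at and 1422441_x_at) hold probes that may also match other transcripts. Of the 16 probe sets, 15 lay at or above the 70th percentile of mean signal, and the exception was Cdk6 (1460291_at), whose mean signal of 51.8 lay at percentile 36.3. All arrays had been brought to the same average before deposit, with a 2% trimmed mean of 499.9 to 500.0. The 3′ to 5′ ratio of the actin control was 1.10 to 1.25. Culture 2 of null embryo 4 had the highest prelabelled spike-in controls, at a mean of 5862 against 2814 to 5039 on the other 19 arrays. E2f4 itself (1451480_at) had embryo means of 155 to 196 in E2F4 null cells, against 209 to 221 in wild type cells. The groups did not overlap, the log2 difference was -0.35 ± 0.11 (SE), and the limma adjusted p was 0.522. Whether the E2f4 probes lie in the deleted part of the gene is not stated in the labels, so this signal is no check of the labels.

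Promoter sequence from RefSeq (GRCm38.p6) matched 4 of the 6 members in 5 windows of 250 bases before the start site, and the windows of Cdk2 and Cdk4 are printed because the signals of these kinases followed the mitosis genes across embryos, as described below. The Cdk2 window is chr10:128705052-128705301 on the minus strand, and its capitals mark the single match to an E2F word, 140 to 133 bases before the start. The Cdk4 window is chr10:127063285-127063534 on the plus strand, and its capitals mark 4 copies of the E-box CACGTG, the word that Myc can bind.
Cdk2: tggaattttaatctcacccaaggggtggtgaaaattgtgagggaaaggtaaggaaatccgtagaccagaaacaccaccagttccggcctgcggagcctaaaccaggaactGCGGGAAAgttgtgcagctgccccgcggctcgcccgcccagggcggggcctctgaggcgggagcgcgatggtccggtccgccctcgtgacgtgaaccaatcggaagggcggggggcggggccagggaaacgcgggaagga
Cdk4: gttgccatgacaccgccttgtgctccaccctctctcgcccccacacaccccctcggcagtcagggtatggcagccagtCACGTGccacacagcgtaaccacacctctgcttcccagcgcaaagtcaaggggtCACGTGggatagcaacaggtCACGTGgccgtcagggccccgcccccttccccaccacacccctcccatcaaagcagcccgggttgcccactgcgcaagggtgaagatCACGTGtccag

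The E2F words searched were TTTCCCGC, TTTCGCGC, TTTGCCGC and TTTGGCGC on both strands, and the Cdk2 match reads TTTCCCGC on the strand opposite to the gene. Of 32851 promoter windows of the same length, 1.86% held at least 1 of these words and 6.02% held CACGTG, which reads the same on both strands. In the Cdk4 window the copies of CACGTG began 172, 118, 98 and 11 bases before the start. The Cdk6 window (chromosome 5, plus strand) held 1 copy, 220 bases before the start, and the 2 windows of Ccnd3 on chromosome 17 held neither word. The motif words do not overlap each other in these windows. Ccnd1, on chromosome 7, and Ccnd2, on chromosome 6, had no window. Whether the motif words bear on the signal of any member was not tested.

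No member differed between E2F4 null and wild type embryos after adjustment. Cdk6, a kinase partner of D cyclins, had the largest difference, 0.78 lower in null embryos on the log2 scale, and its embryo groups did not overlap. All 7 Ccnd2 probe sets lay slightly lower and all 3 Cdk4 probe sets slightly higher in null embryos, but neither gene passed the test with any probe set. Some members differed between embryos of the same genotype, but Ccnd3 and Cdk6 passed that test in neither genotype. Ccnd1 on all its probe sets and Ccnd2 on most of them differed among null embryos and among wild type embryos. Cdk4 differed among null embryos only on 1422441_x_at (limma F test adjusted p = 0.00892), whose probes may match other transcripts. Among wild type embryos Cdk4 differed on that probe set and on 1422439_a_at. Cdk2 differed among wild type embryos only. On the brightest probe sets, wild type embryo 2 had the highest Ccnd2 and the lowest Cdk2 and Cdk4 of all 8 embryos.

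Ccnd1 encodes cyclin D1, the D cyclin most closely tied to growth factor signalling. Its brightest probe set, 1417420_at, had embryo means of 2058, 2459, 3012, 2984 and 2891 in null embryos 1 to 5, against 2235, 2886 and 2867 in wild type embryos 1 to 3. The groups overlapped across nearly their whole range, with null embryo 1 and wild type embryo 1 low in each. The log2 difference was 0.00 ± 0.14 (SE), with a 95% interval of -0.31 to 0.31 and a limma adjusted p of 0.999. The other probe sets differed by 0.08 (1417419_at) and -0.02 (1448698_at).

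The embryo pattern of Ccnd1 was shared by its 3 probe sets. Between their embryo means, Pearson's r was 0.82 to 0.91 over the 8 embryos, given as a description. Null embryo 1 was the lowest null embryo on all 3, and wild type embryo 1 was the lowest wild type embryo on all 3. On 1417419_at the null embryos spanned 1510 to 2460, a 1.63-fold range, and the wild type embryos 1607 to 2153, a 1.34-fold range. Ccnd1 passed the limma F test over cultures on all 3 probe sets among null embryos (adjusted p = 0.000339 to 0.0264) and on all 3 among wild type embryos (adjusted p = 9.1e-07 to 0.0227). Without null embryo 1, 1417420_at and 1448698_at no longer passed among null embryos (adjusted p = 0.322 and 0.200), and without wild type embryo 1 none of the 3 passed among wild type embryos (adjusted p = 0.232 to 0.999). On 1417420_at the null call was also lost without the array with high spike-in controls (adjusted p = 0.0544), and the wild type call without wild type embryo 3 (adjusted p = 0.0512). With cultures 1 and 2 of each embryo only, 1417420_at passed among neither null nor wild type embryos (adjusted p = 0.0552 and 0.0759) and 1417419_at did not pass among wild type embryos (adjusted p = 0.0600).

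**Figure D1:**
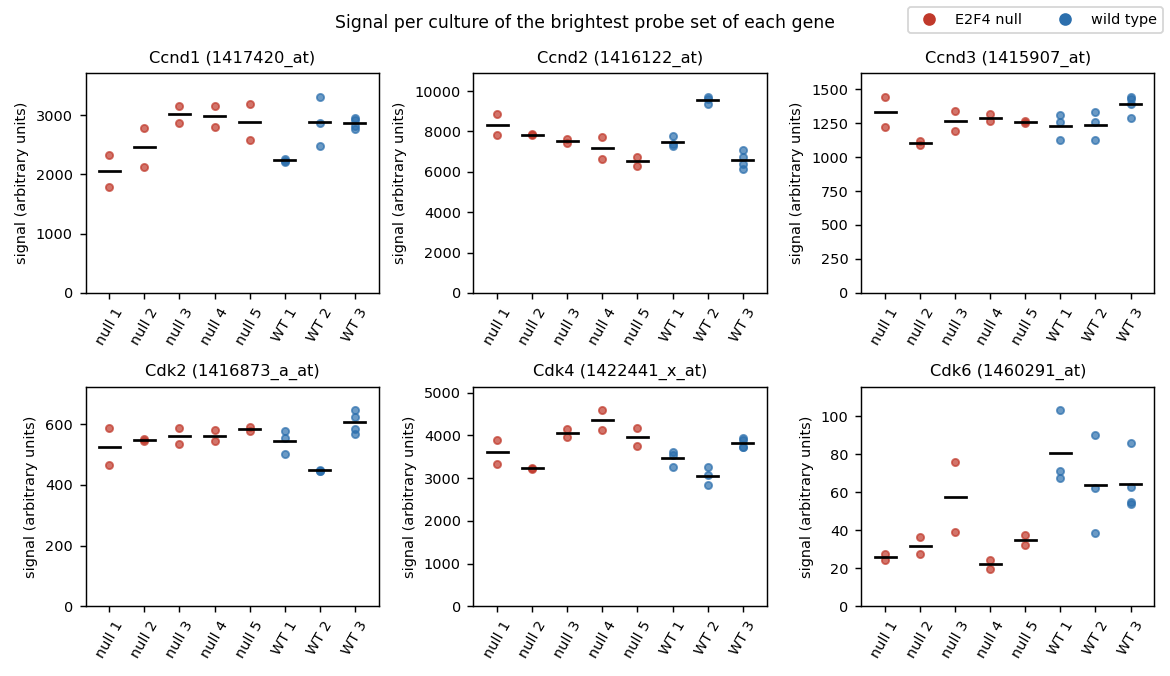
Signal in arbitrary units (y axis, from 0) of the brightest probe set of each gene in every culture, by embryo, with E2F4 null embryos in red to the left and wild type embryos in blue. Dots are cultures and bars are embryo means; Ccnd2 is highest and Cdk2 lowest in wild type embryo 2, and the Cdk6 means of the 5 null embryos (22.1 to 57.7) lie below those of the 3 wild type embryos (63.8 to 80.8).

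Ccnd2 encodes cyclin D2, which can replace cyclin D1 in many cells and is also known to be induced in cells that leave the cycle. On the brightest probe set, 1416122_at, the means of null embryos 1 to 5 were 8333, 7843, 7517, 7181 and 6515, against 7464, 9554 and 6598 in wild type embryos 1 to 3. The 3 cultures of wild type embryo 2 read 9356 to 9719, above every other culture of either genotype, the highest of which was 8841 in null embryo 1. The 4 cultures of wild type embryo 3 read 6164 to 7100. Wild type embryos thus held both the highest mean and a mean close to the lowest, that of null embryo 5, and the null embryos lay within that range but for embryo 5.

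The mean Ccnd2 signal on 1416122_at was 7478 ± 686 in null embryos (SD, n = 5), against 7872 ± 1520 in wild type embryos (SD, n = 3). The log2 difference was -0.06 ± 0.12 (SE), and its 95% interval ran from -0.33 to 0.21. Over the 7 probe sets the log2 differences were -0.21 to -0.06, with limma adjusted p-values of 0.810 to 0.948. These probe sets share transcripts and embryos, so their common sign is a single observation. Without wild type embryo 2 the difference turned positive on 1416122_at, 1430127_a_at and 1455956_x_at, at 0.09, 0.08 and 0.08. It came to -0.07 on 1434745_at, -0.11 on 1448229_s_at and -0.03 on 1416124_at, against -0.19, -0.21 and -0.17 with all embryos. On 1416123_at it did not shrink, at -0.161 against -0.157 with all embryos.

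Among embryos of the same genotype, Ccnd2 passed the F test on 5 of its 7 probe sets in null embryos and on 6 of 7 in wild type embryos. For 1416122_at the limma F test gave an adjusted p of 0.0361 among null embryos and 6.9e-06 among wild type embryos, with ranges of 1.28-fold and 1.45-fold. The null call on this probe set was lost without null embryo 1, 2 or 5 (adjusted p = 0.114, 0.0565 and 0.289). It was lost too after quantile normalization (adjusted p = 0.0548), with cultures 1 and 2 of each embryo only (0.0722) and with the culture number as a block (0.0918). The wild type call was lost without wild type embryo 2 (adjusted p = 0.124). On 1434745_at and 1448229_s_at the null embryos also differed, with adjusted p-values of 0.00279 and 0.000641. The probe sets of Ccnd2 followed each other across the 8 embryos with r of 0.44 to 0.99 over 21 pairs. The low values all involved 1416123_at: without it r was 0.70 to 0.99 over 15 pairs. On 1416123_at, with a mean signal of 734, the wild type embryo means were 716 to 850 and the highest was embryo 1, not embryo 2, and this probe set passed neither F test.

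**Figure D2:**
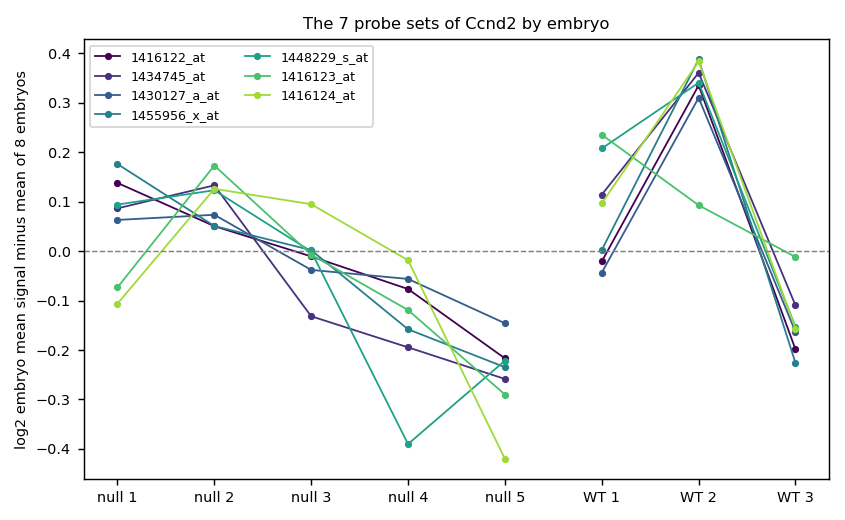
Log2 embryo mean signal of the 7 Ccnd2 probe sets (lines), each minus its own mean over the 8 embryos (y axis), for 5 E2F4 null and 3 wild type embryos (x axis, where the order of embryos has no meaning and lines join the values of a probe set). In 6 of the 7 probe sets wild type embryo 2 is the highest wild type embryo, and 1416123_at departs from the others there.

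Ccnd3 encodes cyclin D3, the D cyclin best known from lymphoid cells and differentiating muscle. Its probe set, 1415907_at, had means of 1334, 1102, 1264, 1291 and 1257 in null embryos 1 to 5, against 1232, 1238 and 1389 in wild type embryos 1 to 3. The groups overlapped, and the embryos lay closer together than for Ccnd1 or Ccnd2. The log2 difference was -0.04 ± 0.08 (SE), with a 95% interval of -0.21 to 0.13 and a limma adjusted p of 0.947. Ccnd3 passed the F test neither among null embryos (limma adjusted p = 0.272) nor among wild type embryos (adjusted p = 0.107).

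Cdk2 encodes the kinase of cyclins E and A. Its probe set, 1416873_a_at, had means of 527, 549, 562, 563 and 584 in null embryos 1 to 5, against 545, 448 and 606 in wild type embryos 1 to 3. The 3 cultures of wild type embryo 2 read 447 to 450, below the cultures of the 7 other embryos, which read 467 to 647. The log2 difference was 0.07 ± 0.10 (SE), with a 95% interval of -0.14 to 0.29 and a limma adjusted p of 0.925. Null embryos spanned a 1.11-fold range and did not pass the F test (limma adjusted p = 0.799), while wild type embryos spanned a 1.35-fold range and did (adjusted p = 0.000885). Without wild type embryo 2 the wild type call was lost (limma adjusted p = 0.343), and the sign of the genotype difference turned, to -0.05. Whether the spread differed between the genotypes was not tested.

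Cdk4 encodes the kinase partner of D cyclins that most cell types use. On the brightest probe set, 1422441_x_at, means were 3617, 3231, 4048, 4365 and 3968 in null embryos 1 to 5, against 3471, 3055 and 3818 in wild type embryos 1 to 3. The groups overlapped, with null embryos 3, 4 and 5 above all wild type embryos and null embryo 2 below 2 of them. The log2 difference was 0.15 ± 0.11 (SE), with a 95% interval of -0.08 to 0.39 and a limma adjusted p of 0.825. On 1422440_at it was 0.09 and on 1422439_a_at 0.21, which had an unadjusted p of 0.0450 and an adjusted p of 0.694. Without wild type embryo 2 the differences of the 3 probe sets were 0.07, 0.04 and 0.11. The 3 probe sets followed each other across embryos with r of 0.80 to 0.97. In the F test, 1422441_x_at passed among null embryos (limma adjusted p = 0.00892) and among wild type embryos (adjusted p = 0.00225). The null call was lost without null embryo 2 (adjusted p = 0.225) and the wild type call without wild type embryo 2 or 3 (adjusted p = 0.236 and 0.0876) or with cultures 1 and 2 only (adjusted p = 0.0696). Of the other 2 Cdk4 probe sets, 1422439_a_at passed among wild type embryos (limma adjusted p = 0.000366), where the call was lost without embryo 2 (adjusted p = 0.162), and 1422440_at passed in neither genotype, though it did without null embryo 1 (adjusted p = 0.0382) or wild type embryo 1 (adjusted p = 0.0443) among the embryos left of that genotype.

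Cdk6 encodes the other D cyclin kinase, prominent in blood cells and also present in fibroblasts. Its probe set, 1460291_at, was dim: the means were 25.8, 31.9, 57.7, 22.1 and 34.9 in null embryos 1 to 5, against 80.8, 63.8 and 64.5 in wild type embryos 1 to 3. All 5 null embryos lay below all 3 wild type embryos, but single cultures overlapped, at 19.8 to 76.2 in null cells against 38.7 to 103 in wild type cells. The mean was 34.5 ± 13.9 in null embryos (SD, n = 5) and 69.7 ± 9.60 in wild type embryos (SD, n = 3). The log2 difference was -0.78 ± 0.20 (SE), with a 95% interval of -1.24 to -0.32, an unadjusted p of 0.00360 and a limma adjusted p of 0.501. The size depended on the pseudocount, since it was -0.97 with a pseudocount of 4 and -0.44 with 64, and it lay between -0.92 and -0.68 when each embryo was left out in turn. Treating the 20 cultures as independent samples brought the limma adjusted p to 0.00693, a fit that ignores the shared embryos, and it was 0.0700 when cultures were fitted with a random effect of embryo. No detection call comes with the signals, and whether this probe set is above background in these cells was not tested.

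**Figure D3:**
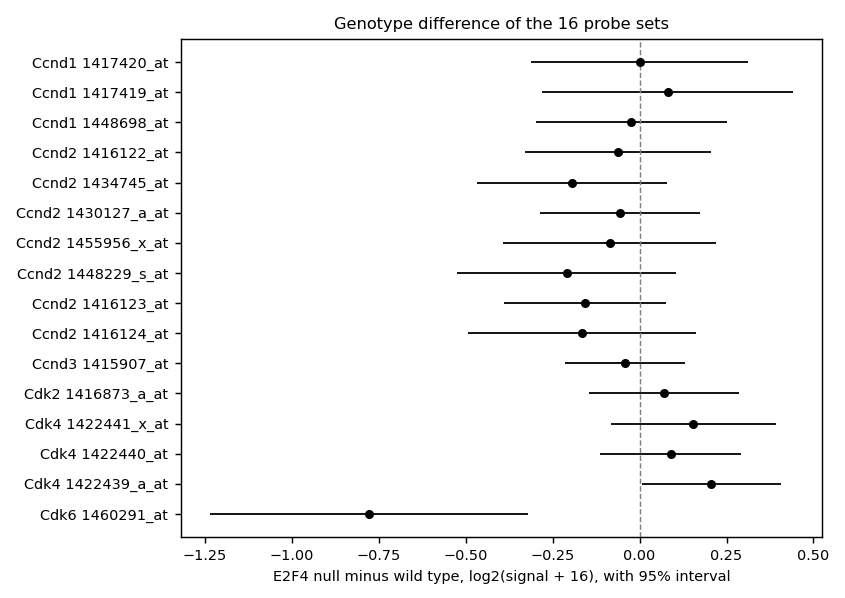
Genotype difference in log2(signal + 16), E2F4 null minus wild type (x axis), of the 16 probe sets (y axis), as points with 95% intervals from limma on 8 embryo means; the dashed line is no difference. The interval of Cdk6 (-1.24 to -0.32) and that of Cdk4 1422439_a_at (0.01 to 0.41) leave out 0, and neither passed after adjustment.

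Over the whole table, the genotype test called 0 of 22626 probe sets (percent called 0%), and 7.1% had an unadjusted limma p under 0.05. Of the 16 member probe sets, 2 had an unadjusted p under 0.05, those of Cdk6 and of Cdk4 (1422439_a_at). Embryo means of null cells lay wholly above those of wild type cells in 2.56% of all probe sets and wholly below in 2.61%; among the members 0 lay above and 1, Cdk6, lay below. The median log2 difference of the members was -0.05, beside 0.01 for all probe sets, with 10 members below 0 and 6 above.

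The F test among null embryos called 9 of the 16 member probe sets, beside 13.6% of all probe sets and 25.5% of the 6788 probe sets at or above the 70th percentile of mean signal. Among wild type embryos it called 12 of 16, beside 29.1% of all probe sets and 50.8% of the bright ones. Without null embryo 1, 2 or 5 the null count was 6 of 16 in each case, and without wild type embryo 2 the wild type count was also 6 of 16. The median SD between embryo means was 0.15 on the log2 scale for probe sets at or above the 40th percentile, beside 0.23 for Ccnd1 1417420_at, 0.19 for Ccnd2 1416122_at, 0.13 for Cdk2 and 0.10 for Ccnd3. Counts of the members are not independent, because 13 of the 16 probe sets belong to 3 genes.

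The relative abundance of paralogs was followed as the log2 ratio of 2 brightest probe sets within an array, averaged per embryo. Only the change of such a ratio between embryos carries meaning, not its level. Among the D cyclins, the ratio of Ccnd1 to Ccnd2 spanned a 1.79-fold range over the 8 embryos, from -0.51 in null embryo 1 to 0.34 in null embryo 5 around the mean of all embryos. In wild type embryos 1 to 3 it was -0.22, -0.22 and 0.32. The genotypes differed by 0.06, 0.04 and -0.02 for Ccnd1 over Ccnd2, Ccnd1 over Ccnd3 and Ccnd2 over Ccnd3, with exact two-sided permutation p-values adjusted over 6 ratios of 0.929 for each. The balance of the D cyclins thus moved more between embryos of a genotype than between the genotypes.

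Among the kinases, Cdk4 over Cdk6 was higher by 0.93 in null embryos and Cdk2 over Cdk6 by 0.85, with all 5 null embryos above all 3 wild type embryos in both ratios. The exact permutation p was 0.0179 for each, the smallest that 56 splits of 8 embryos can give, and it was 0.0536 after adjustment over the 6 ratios, so neither passed with these probe sets. Both ratios share the single Cdk6 probe set and move with its low values. With a pseudocount of 64 the differences were 0.59 and 0.51. Cdk2 over Cdk4 differed by -0.08 with an adjusted exact permutation p of 0.679. These calls turned with the Cdk4 probe set. With 1422439_a_at in place of the brightest in both Cdk4 ratios, Cdk2 over Cdk4 differed by -0.14 and Cdk4 over Cdk6 by 0.98, and these and Cdk2 over Cdk6 (0.85) each had an adjusted exact permutation p of 0.0357, since 3 ratios then shared the smallest p. With 1422440_at the ratios over Cdk6 had an adjusted exact permutation p of 0.107 and Cdk2 over Cdk4 one of 0.929.

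**Figure D4:**
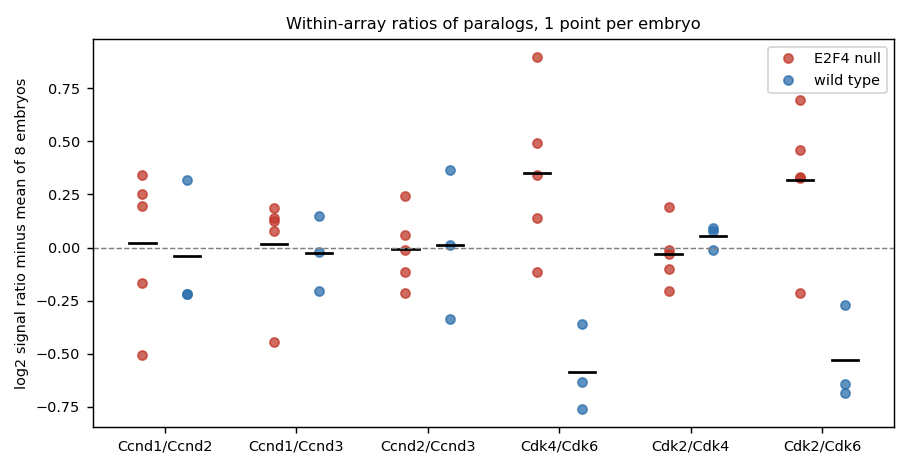
Within-array log2 ratio of the brightest probe sets of 2 paralogs, 1 point per embryo, minus the mean of the 8 embryos (y axis), for 6 pairs (x axis), with E2F4 null in red to the left of wild type in blue and bars at the group means. The genotypes separate in the 2 ratios over Cdk6 (differences of 0.93 and 0.85) and overlap in the other 4.

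Ccnd2, Cdk2 and Cdk4 varied with the level of mitosis genes across embryos, and Ccnd1, Ccnd3 and Cdk6 gave no relation that passed. The mean of 16 genes of mitosis, such as Bub1b of the spindle checkpoint and the mitotic kinase Aurkb, lay at -0.14, -0.11, 0.12, 0.23 and 0.19 in null embryos 1 to 5 around the mean of all embryos on the log2 scale, against -0.02, -0.52 and 0.24 in wild type embryos 1 to 3. Wild type embryo 2 was thus the lowest and wild type embryo 3 the highest. Ccnd2 ran against this mean, with Pearson r = -0.948 over 8 embryos (exact permutation p = 0.000496, adjusted p = 0.00347 over 21 relations) and Spearman rho = -0.905 (exact p = 0.00456, adjusted p = 0.0319). Without the 2 embryos farthest from the median, wild type embryos 2 and 3, r was -0.840. Over the 7 Ccnd2 probe sets r was -0.965 to -0.498, the weakest again being 1416123_at.

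Cdk2 ran with the mitosis mean, at r = 0.954 (exact permutation p = 0.000422, adjusted p = 0.00347), rho = 0.952 (exact p = 0.00114, adjusted p = 0.0240) and r = 0.849 without the 2 farthest embryos. Cdk4 did so too, at r = 0.876 (exact permutation p = 0.00337, adjusted p = 0.0177) and 0.885 without the same embryos, while its rho of 0.762 did not pass (exact p = 0.0368, adjusted p = 0.193). Ccnd2 and Cdk2 ran against each other at r = -0.957 (exact permutation p = 0.000372, adjusted p = 0.00347), rho = -0.905 (exact p = 0.00456, adjusted p = 0.0319) and r = -0.934 without wild type embryos 2 and 3. These 4 of the 21 relations passed. The share of all probe sets that followed the mitosis mean as closely was not counted, so these relations are not shown to be particular to the members. None of the 21 passed without wild type embryo 2, when r was -0.877 for Ccnd2, 0.859 for Cdk2 and 0.811 for Cdk4 against the mitosis mean and -0.933 between Ccnd2 and Cdk2, with adjusted exact permutation p-values of 0.0760, 0.0760, 0.128 and 0.0760. The Cdk4 relation also missed the threshold without null embryo 3 or 5.

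Ccnd1, Ccnd3 and Cdk6 gave no such relation, with r of 0.318, 0.389 and -0.175 against the mitosis mean and adjusted exact permutation p-values of 0.726, 0.726 and 0.877. For Ccnd1 wild type embryo 2 decided the value: without it r was 0.885, with an adjusted exact permutation p of 0.0760. Cdk4 against Ccnd2 (r = -0.721) and against Cdk2 (r = 0.709) had an adjusted exact permutation p of 0.144 each. Ccnd1 and Ccnd2 were related at r = -0.289 (adjusted exact permutation p = 0.741). Without the 2 farthest embryos, null embryo 5 and wild type embryo 2, that r was -0.711. The remaining 11 pairs of members had r between -0.351 and 0.516, and some of these rested on few embryos: without the 2 farthest, r was 0.871 for Ccnd1 and Cdk2, 0.80 for Ccnd1 and Cdk6 and 0.697 for Ccnd1 and Cdk4, against 0.175, 0.090 and 0.421 over all 8.

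**Figure D5:**
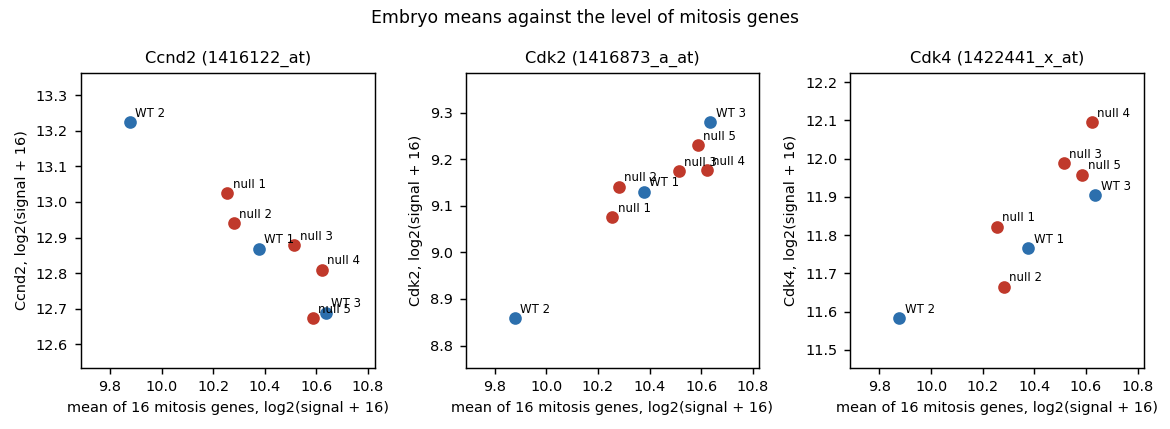
Embryo means of Ccnd2, Cdk2 and Cdk4 in log2(signal + 16) (y axes) against the mean of 16 mitosis genes on the same scale (x axes), 5 E2F4 null embryos in red and 3 wild type embryos in blue. Ccnd2 falls (r = -0.948) and Cdk2 and Cdk4 rise (r = 0.954 and 0.876) along the mitosis mean, with wild type embryo 2 at the far left of each panel.

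The brightness of the arrays moved with these relations. The 99th percentile of signal was 10435 to 10646 on the arrays of wild type embryo 2, 10513 to 10903 on those of null embryos 1 and 2, and 9474 to 10229 on the others except culture 2 of null embryo 4, at 10946. Over the embryos its log2 value had r of 0.596 with Ccnd2, -0.487 with Cdk2, -0.455 with Cdk4 and -0.558 with the mitosis mean, as a description. After quantile normalization, which makes the distributions equal, r against the mitosis mean was -0.917 for Ccnd2, 0.942 for Cdk2 and 0.892 for Cdk4. Growth state, density and passage of the cultures are not given in the labels, and their part in these relations was not tested.

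By the rule of likeness, the genes whose embryo means followed a member most closely among 7690 genes were named, as a description over 8 embryos of 2 genotypes. A search of 7690 genes over 8 embryos returns high r values even where no relation exists, and none of these was tested. For Cdk2 they were Spag5, a spindle protein gene (r = 0.988), Nelfcd (0.987) and Top2a, the topoisomerase of dividing cells (0.986). For Cdk4 they were Rai14 (r = 0.984), the histone chaperone gene Asf1a (0.978) and the histone variant gene H2az1 (0.977). For Ccnd2 they were Ndfip2 (r = 0.982), Sco2 (0.981) and Atp6ap1, a subunit gene of the vacuolar proton pump (0.973). Ccnd1 was followed most closely by Scand1, Aamdc and the collagen receptor gene Ddr2 (r = 0.942, 0.939 and 0.939), Ccnd3 by the proteasome gene Psmd1, Cdpf1 and Rrp7a (0.947, 0.942 and 0.931), and Cdk6 by Klhl9, Mindy1 and Aldh6a1 (0.946, 0.933 and 0.921).

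The rest of the G1 pathway was read from gene lists by the brightest probe set of each gene, and the genotype test called 0 genes in any of the 14 lists, markers included. Of 3 other G1 and S phase cyclins, Ccna2, the cyclin A gene that E2F factors regulate, lay at 0.12, Ccne1 at 0.00 and Ccne2 at -0.05. Of 7 genes of CDK inhibitors, 3 lay above and 4 below 0 (median -0.02), with the p27 gene Cdkn1b at -0.25 and the p19 gene Cdkn2d at 0.11. Of 9 measured genes of pocket proteins and other E2F subunits, 7 lay below 0 (median -0.04), with Rb1 at -0.21 and the repressor E2f6 at -0.11. Of 5 genes of CDK activation and folding, 3 lay above 0, with the CDK-activating subunits Mnat1 at 0.20 (unadjusted limma p = 0.0357) and Ccnh at 0.18. Of 8 genes of D cyclin turnover, 4 lay above and 4 below 0, with the ubiquitin ligase subunit Skp1 at -0.17 and Fbxw8, an F-box protein gene, at 0.18. Skp1 had an unadjusted limma p of 0.0165 and an adjusted p of 0.602. Its embryo groups did not overlap, at 3102 to 3343 in null embryos against 3476 to 3888 in wild type embryos.

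Of 13 mitogen-responsive regulators that act on D cyclin genes, 10 lay below 0, with a median of -0.07. Stat3, a factor downstream of cytokine receptors, had embryo means of 1532 to 1611 in null embryos, against 1800 to 2249 in wild type embryos. The groups did not overlap, and the log2 difference was -0.41 with a limma adjusted p of 0.324. Junb, an AP-1 subunit gene, lay at -0.60 (limma adjusted p = 0.608), with null embryos at 326 to 559 and wild type embryos at 464 to 747. Of 15 measured G1/S genes that E2F factors control, 11 lay above 0 (median 0.07), with the clamp loader gene Rfc4 at 0.35 and the ribonucleotide reductase gene Rrm1 at 0.15. All 16 measured mitosis genes lay above 0 (median 0.14), with Aurkb at 0.29 and Bub1b at 0.27. Mitosis genes vary together across embryos, so their common sign is not 16 observations. It leaned on wild type embryo 2, whose mitosis mean lay at -0.52 around the mean of all embryos. Wild type embryos 1 and 3 lay at -0.02 and 0.24, against -0.14 to 0.23 in null embryos. The F test called 12 of the 16 mitosis genes among null embryos and all 16 among wild type embryos, beside 25.5% and 50.8% of bright probe sets in the same 2 tests. That mitosis genes differ between these embryos was known from an earlier look at the data, so these counts only describe the list.

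The fibroblast markers were bright, with 10 of 10 at or above the 40th percentile and summed signals of 83588 to 95712 in null embryos, against 92400 to 93515 in wild type embryos. Among them 4 of 10 lay above 0, with Pdgfrb at 0.20 and Thy1 at -0.19. The sum follows the brightest fibroblast markers, and a dimmer one, Pdgfra, was uneven between embryos. Pdgfra was 191 in wild type embryo 2 and 196 and 338 in null embryos 1 and 2, against 852 to 1367 in the other embryos. The 7 macrophage markers, all above 0, summed to 1201 to 4099 in null embryos, against 1519 to 2275 in wild type embryos, with a median difference of 0.32 and Laptm5 and Cd14 at 0.35 and 0.32. These markers share the same embryos, so their common sign is not 7 observations. Lyz2, the brightest, was highest in null embryo 4, at 2509, and lowest in null embryo 1, at 554, against 762 to 1126 in wild type embryos. The 6 neural markers summed to 1816 to 2606, against 1859 to 2211, and 4 lay above 0, with Gap43 at 0.31 and Ncam1 at -0.13. The 5 skeletal muscle markers summed to 429 to 3559, against 526 to 4272. They followed mainly Acta1 (difference -0.78), which was highest in wild type embryo 2, at 3863, and in null embryo 2, at 3142, and 3 of the 5 lay above 0, with Myog at 0.48. Myog was very dim, with a mean signal of 14.2 at percentile 17.9, so little can be read from its difference. The 5 epithelial markers summed to 390 to 733, against 306 to 549, and 3 lay above 0, with Krt19 at 0.52 and Krt8 at 0.43. Krt8 was dim, with a mean signal of 45.3, and its null embryos lay above all wild type embryos (unadjusted limma p = 0.0237, adjusted p = 0.645). The 5 endothelial markers, none at or above the 40th percentile, summed to 76.9 to 110, against 79.3 to 121, and 1 lay above 0, with Kdr at -0.04 and Tie1 at -0.11. The part of minor cell types in any member's signal was not tested.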

How the data were processed

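RNA of 20 MEF cultures was hybridised to 1-colour Affymetrix arrays, 1 array per culture. The authors deposited 1 linear signal intensity per probe set and array. Per the submitters' processing notes these came from MAS5, with no version, target or presence call stated. Because every array was brought to the same average, a change common to all genes cannot be seen.

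Probe sets were named from the platform annotation, with symbols updated through RefSeq: 20380 had 1 symbol, 691 had several and were not named, and 1555 are unnamed here. The 64 controls were left out. A pseudocount of 16 was added before log2, cultures were averaged per embryo, and limma 3.58.1 in R 4.3.3 (trended eBayes) tested 5 null against 3 wild type embryos, with Benjamini-Hochberg adjustment over 22626 probe sets and no filter. An F test over cultures compared embryos of the same genotype. Ratios and correlations used exact two-sided permutation tests (scipy 1.17.1). Named genes were all members, E2f4, in each list the called genes or else the 2 with the smallest p, and the 3 genes most like each member at or above the 40th percentile. Members and lists were chosen with earlier results of these data known. The code was tested on simulated data. The number of embryos limits the precision. Alternatives were the pseudocount, filter, normalization, blocks, fits over cultures and leaving out each embryo.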

Additional observations from a re-analysis of the deposited data

Results flagged for a closer look

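The within-array ratio of Ccnd1 to Ccnd3 was far lower in null embryo 1 than in the 4 other null embryos. It lay at -0.45 around the mean of all embryos, against 0.08 to 0.18 in the other null embryos and -0.20 to 0.15 in wild type embryos, and the gap to the nearest null embryo was 0.829 of the range of the null embryos. That share is above the limit of Dixon's test for 5 values. In this embryo Ccnd1 was the lowest of the null embryos and Ccnd3 the highest. Of 22 values examined in this way 1 stood out, and chance gives about 1 in 20.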

How the results depend on the processing

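The 0 calls between genotypes stood beside 1606 probe sets with an unadjusted limma p under 0.05. They became 1 with 1 bright probe set per gene, 220 with the embryo as a random block, 695 with cultures as independent samples, and 0 to 5 when an embryo was left out (5 without wild type embryo 2). Embryo and culture numbers were tried as a block although they name different embryos: with the culture number as a block 254 probe sets were called, and with the embryo number 0. Same-numbered embryos deviated together with r of 0.08, 0.46 and 0.23, and same-numbered cultures with r of 0.05 and 0.00, so the numbers were not taken to pair samples. No member was called in any of these block fits, and Cdk6 was called only with cultures as independent samples. Under the embryo number block the difference was -0.098 for Ccnd1 1417420_at and -0.099 for 1417419_at, and 0.021 for Ccnd2 1416122_at and 0.023 for 1455956_x_at. The difference of Ccnd1 1417420_at, 0.00 in the report, was also just below 0 with quantile normalization (-0.0091), the random block (-0.0039), independent cultures (-0.011), cultures 1 and 2 (-0.036), the culture number block (-0.036) and without the array with high spike-in controls (-0.016). Leaving out that array and setting members beside bright probe sets were choices made after seeing the data. Leaving out each embryo gave -0.12 to 0.093 for Ccnd1 1417420_at, -0.045 to 0.18 for 1417419_at, -0.19 to 0.081 for 1448698_at, -0.18 to 0.086 for Ccnd2 1416122_at, -0.16 to 0.081 for 1430127_a_at, -0.23 to 0.081 for 1455956_x_at, -0.071 to 0.015 for Ccnd3 and -0.045 to 0.17 for Cdk2. It gave ratios of -0.027 to 0.24 for Ccnd1 over Ccnd2, -0.047 to 0.16 for Ccnd1 over Ccnd3 and -0.20 to 0.15 for Ccnd2 over Ccnd3. With 1422439_a_at for Cdk4, chosen for every kinase ratio after seeing the data, Cdk2 over Cdk4 was -0.135, Cdk4 over Cdk6 0.984 and Cdk2 over Cdk6 0.849, and all passed. The 6582 probe sets called among wild type embryos became 4077 with cultures 1 and 2 and 1708 to 6133 without an embryo (1708 without embryo 2); the 3073 called among null embryos became 1838 to 3075 (1838 without embryo 2). Member probe sets called among wild type embryos, 12 in the main fit, numbered 6 to 10 in the fits that left out an embryo or used cultures 1 and 2 only. Of the 21 relations 0 to 4 passed. Cdk6 against the mitosis mean had r of 0.153 within genotypes and -0.352 to 0.127 without an embryo. The cause of these changes was not tested, beyond the fewer cultures or embryos of some fits. The design has 8 embryos, and dim signals such as that of Cdk6 depend on the pseudocount.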
